A study of Mus musculus with 12 samples.

Results

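The 2 gonadotropin receptors, Lhcgr (the receptor for luteinizing hormone, LH) and Fshr (the receptor for follicle-stimulating hormone, FSH), were followed through 4 groups of mouse granulosa cells. Their probe sets were chosen by transcript identifier, ENSMUST00000024916_at for Lhcgr and ENSMUST00000035701_at for Fshr, and both were present among the 41115 probe sets named by transcript. Neither shared its values with another probe set. Lhcgr and Fshr were chosen with results of these same arrays known, so their levels and differences are given here as a description, without a test.

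The groups were mural granulosa cells of stimulated mice, mural granulosa cells of unprimed mice, cumulus cells of stimulated mice and cumulus cells of unprimed mice, with 3 arrays each. All came from B6SJLF1 mice 22 days old, in pools of 5 mice, and each cumulus sample was stripped from 200 cumulus-oocyte complexes. Mice of the stimulated groups were injected intraperitoneally with equine chorionic gonadotropin (eCG, called PMSG in the sample titles) at a dose of 5 IU, and their cells were taken 44 hours later. Unprimed mice had no injection of eCG. Per the design text, only complexes fully enclosed by tight cumulus and healthy clumps of mural cells were taken, so the samples are selected material. In such bulk samples, fewer cells of a type and less RNA per cell cannot be told apart.

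Mural granulosa cells line the follicle wall, and cumulus cells surround the oocyte. Both receptors are glycoprotein hormone receptors coupled to the stimulatory G protein, which raises cyclic AMP. FSH drives growth and oestrogen synthesis in granulosa cells of growing follicles. Mural granulosa cells of large follicles acquire the LH receptor in response to FSH, which prepares them for the LH surge that triggers ovulation. In rodents eCG can act through the FSH receptor.

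Both genes lie on mouse chromosome 17 and on the same strand. In the RefSeq table of GRCm38.p6, 0 protein-coding genes and 2 pseudogenes lay between them. The 250 bases before each RefSeq start site are shown to place these neighbouring genes in the genome and to compare their start regions. No measurement here bears on the use of these sequences. Both are printed in the direction of the gene (minus strand, GRCm38.p6), Lhcgr from chr17:88792015-88792264 and Fshr from chr17:89200676-89200925. Capitals mark matches, on either strand, to GGGCGG (the GC box bound by Sp factors), CACGTG (an E-box), AGGTCA (a nuclear receptor half-site) and TCAAGG (the core of the motif bound by the nuclear receptors of the NR5A family).
Lhcgr: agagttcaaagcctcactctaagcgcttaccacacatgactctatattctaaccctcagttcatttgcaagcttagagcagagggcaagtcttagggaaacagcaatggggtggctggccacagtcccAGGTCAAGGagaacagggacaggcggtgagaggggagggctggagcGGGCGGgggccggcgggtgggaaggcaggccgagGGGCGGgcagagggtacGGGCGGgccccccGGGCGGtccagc
Fshr: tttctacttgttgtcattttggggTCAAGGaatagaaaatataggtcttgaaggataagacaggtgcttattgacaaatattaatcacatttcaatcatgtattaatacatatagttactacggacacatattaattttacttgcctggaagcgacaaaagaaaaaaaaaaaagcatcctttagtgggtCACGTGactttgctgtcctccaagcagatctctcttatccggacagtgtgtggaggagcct

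The Lhcgr window was rich in GC (63.2%) and the Fshr window poor (36.8%), against a median of 52.4% over 32851 RefSeq windows of the same length. Lhcgr held 12 CG dinucleotides and Fshr 4, against a median of 6. GGGCGG occurred 4 times before Lhcgr and 0 times before Fshr, and 32.7% of all windows held it. CACGTG occurred once before Fshr, with its first base 61 bases before the start, and 6.0% of all windows held it. AGGTCA was found before Lhcgr, 122 bases from the start, and in 14.0% of all windows. TCAAGG was found before both genes, 119 bases before Lhcgr and 226 before Fshr, and 12.5% of all windows held it. In the Lhcgr window it overlaps AGGTCA. The longest run common to both windows, ggtcaagga, was 9 bases long, contained TCAAGG and was present in 87 windows, or 0.26%. That run was picked as the longest match over all positions of both windows, and the 0.26% is the frequency of ggtcaagga alone. How often unrelated windows share any run of 9 bases was not tested, so nothing is read from the shared run. TATAAA was in neither window and in 12.4% of all windows. These motifs were picked after the sequences had been read, and a match describes letters, not binding.

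Lhcgr was high in stimulated mural cells and near the array background in the other 3 groups. Values are deposited log2 intensities, on which 1 unit is a doubling. Lhcgr values in stimulated mural cells were 11.07, 10.23 and 10.83 (replicates 1 to 3), against 4.67, 5.96 and 5.04 in unprimed mural cells. Stimulated cumulus cells had 5.51, 4.49 and 4.77, against 4.71, 4.58 and 4.66 in unprimed cumulus cells. The 3 stimulated mural arrays thus lay far above all 9 others, while the other 3 groups overlapped.

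**Figure D1:**
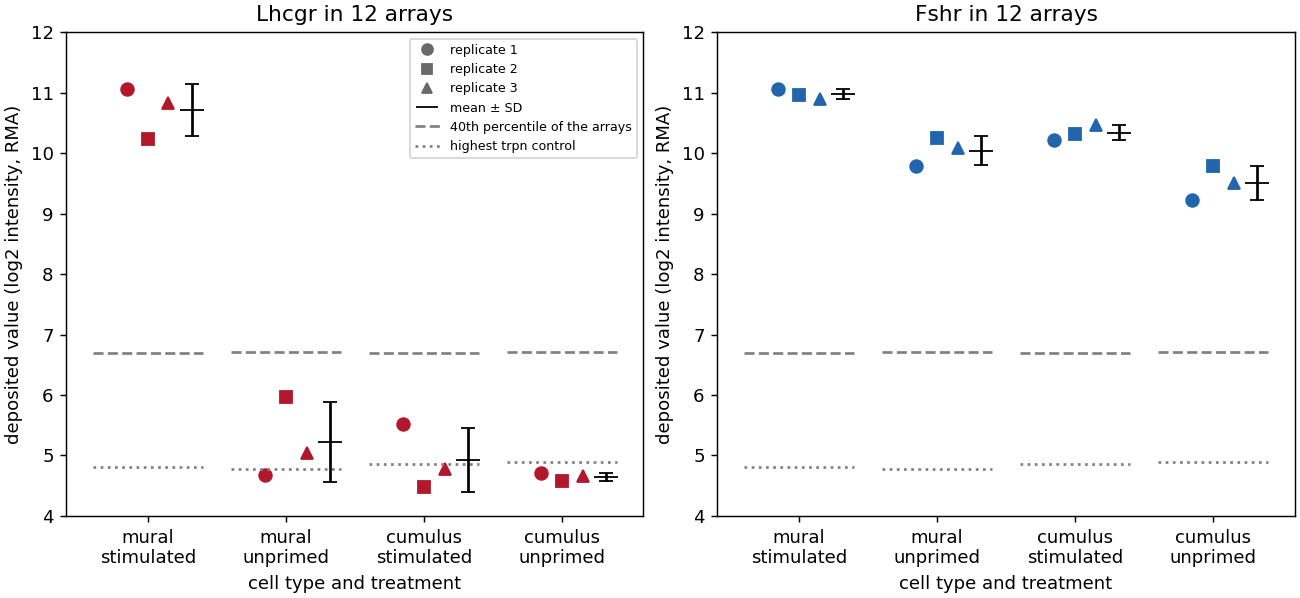
Deposited log2 value of Lhcgr (left, red) and Fshr (right, blue) on each of the 12 arrays, by cell type and treatment, with marker shapes for replicate numbers and black bars for the group mean ± SD (n = 3). Dashed lines give the 40th percentile of the arrays and dotted lines the highest trpn control (group means). The 9 Lhcgr points outside stimulated mural cells lie between 4.49 and 5.96, under the dashed lines, and all 12 Fshr points lie between 9.23 and 11.06.

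Lhcgr averaged 10.71 ± 0.43 in stimulated mural cells and 5.23 ± 0.66 in unprimed mural cells (SD, n = 3 each). Its mean was 4.92 ± 0.53 in cumulus cells after stimulation and 4.65 ± 0.067 in cumulus cells of unprimed mice. In that order of levels, no neighbours below the first differed beyond their spread. The stimulated mural values stood at the 88.4th to 93.6th percentile of the transcripts of their arrays. Those of the other groups stood at the 8.13th to 28.2nd percentile in unprimed mural cells, the 5.76th to 19.5th in stimulated cumulus cells and the 6.67th to 8.25th in unprimed cumulus cells.

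The array's trpn controls match no mouse transcript and give a level for signal without a target. Their highest value was 4.72 to 4.94 on the 12 arrays. All 3 unprimed cumulus values of Lhcgr lay below the highest trpn control of their own array. In unprimed mural cells 2 of 3 lay above it, by 1.24 in replicate 2 and 0.18 in replicate 3. In stimulated cumulus cells 2 of 3 lay above it, by 0.59 in replicate 1 and 0.017 in replicate 3. Lhcgr was thus above this level by more than 0.5 on 2 arrays outside stimulated mural cells, 1 in each of 2 groups.

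Between stimulated and unprimed mural cells the log2 difference of Lhcgr was 5.48 ± 0.32 (SE of the fit to all 12 arrays). That SE pools the spread of all groups, and the unprimed cumulus values varied least. Arrays of the same number differed by 6.39, 4.27 and 5.79. Since the unprimed values lie near background, the size is better given as a bound. For this, values under an array's 40th percentile (6.66 to 6.73) were set to that percentile. On group means, Lhcgr was then at least 16-fold higher in stimulated than in unprimed mural cells, leaving the spread of the arrays aside. With the highest trpn control as the lower limit it was 43.9-fold higher. That value is an estimate and not a bound, since 2 of 3 unprimed mural values lay above this control. Without unprimed mural replicate 1 the plain log2 difference was 5.21.

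Stimulated mural and stimulated cumulus cells differed in Lhcgr by 5.79 ± 0.32 on the log2 scale. On group means this was at least 16.2-fold with the 40th percentile as lower limit. With the trpn controls as lower limit the difference was 50.1-fold, again an estimate, since 2 of 3 stimulated cumulus values lay above them. In cumulus cells the log2 difference between stimulated and unprimed mice was 0.27 ± 0.32, and arrays of the same number differed by 0.80, -0.093 and 0.11. Without stimulated cumulus replicate 1 the difference was -0.021. In unprimed mice the difference between mural and cumulus cells was 0.58 ± 0.32, and it was 0.21 without unprimed mural replicate 2. It was 0.10 with array weights, which rested mostly on unprimed mural replicate 1 (weight 8.61, against 0.492 and 0.369 for replicates 2 and 3). With the 40th percentile as lower limit it was 0.0013. The cumulus difference of Lhcgr thus turned on 1 array whose value was above those of its group. The unprimed difference was reduced without 1 such array, and no fold is given for either. The difference between the 2 responses, mural minus cumulus, was 5.21 ± 0.45 for Lhcgr, and 4.01 with the 40th percentile as lower limit.

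**Figure D2:**
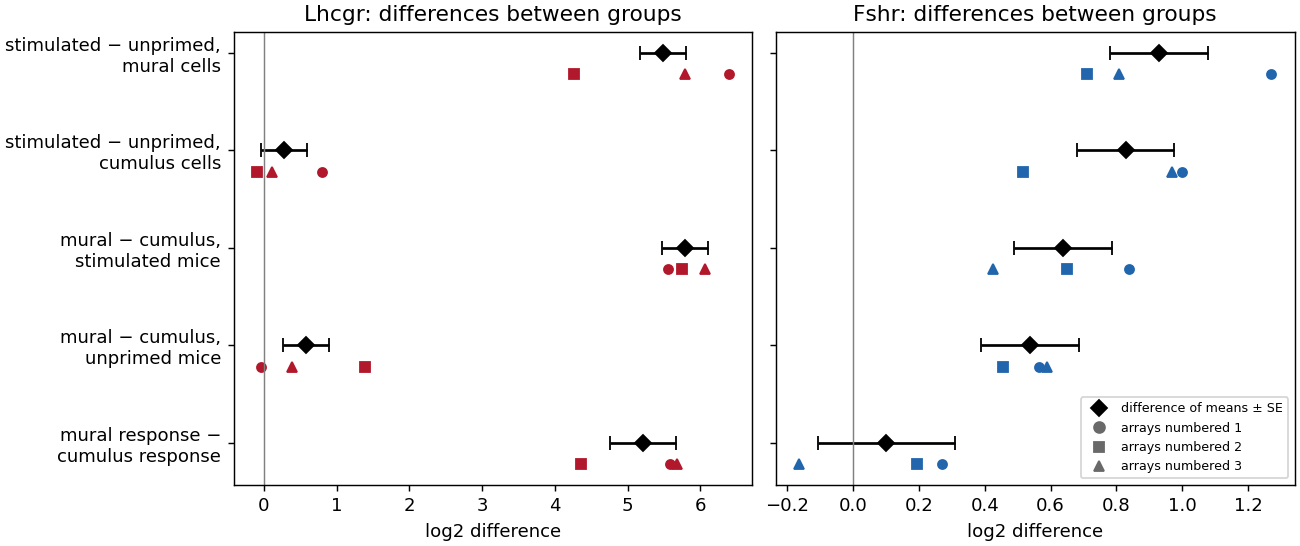
Log2 differences of Lhcgr (left, red) and Fshr (right, blue) in 5 comparisons, on x axes of unlike range. Black diamonds give the difference of group means ± SE, and coloured markers the differences between arrays of the same replicate number. For Fshr all 12 coloured markers of the upper 4 comparisons lie above 0, while for Lhcgr the cumulus response and the difference in unprimed mice straddle 0.

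Fshr was well above background in every group and was higher after stimulation in both cell types. Fshr values were 11.06, 10.96 and 10.90 in mural cells of stimulated mice, against 9.79, 10.25 and 10.09 in mural cells of unprimed mice. They were 10.22, 10.31 and 10.47 in cumulus cells of stimulated mice, against 9.23, 9.79 and 9.50 in cumulus cells of unprimed mice. All 3 stimulated arrays lay above all 3 unprimed arrays in each cell type.

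From highest to lowest, Fshr averaged 10.97 ± 0.083 in stimulated mural, 10.34 ± 0.13 in stimulated cumulus, 10.04 ± 0.23 in unprimed mural and 9.51 ± 0.28 in unprimed cumulus cells (SD, n = 3 each). Stimulated mural cells stood apart from stimulated cumulus cells. The ranges of stimulated cumulus and unprimed mural cells overlapped, since unprimed mural replicate 2 (10.25) exceeded stimulated cumulus replicate 1 (10.22). The ranges of unprimed mural and unprimed cumulus cells met at 9.79. The lowest value of Fshr on any array lay 4.29 above the highest trpn control, and its percentile ran from 77.3 to 93.6.

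In mural cells the log2 difference of Fshr between stimulated and unprimed mice was 0.93 ± 0.15, or 1.90-fold. In cumulus cells it was 0.83 ± 0.15, or 1.78-fold. Of the 25917 probe sets tested, 503 rose more in mural cells and 612 in cumulus cells. Changes at least as large in either direction were found in 1018 and 1017 others. The difference between the responses, mural minus cumulus, was 0.10 ± 0.21, smaller than its standard error, and arrays of the same number gave 0.27, 0.19 and -0.16. It ran from -0.043 without unprimed cumulus replicate 2 to 0.24 without unprimed cumulus replicate 1. A value this close to 0 beside its error does not show that the cell types responded alike.

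Fshr was also higher in mural than in cumulus cells at both stages. The log2 difference was 0.64 ± 0.15 in stimulated mice (1.56-fold) and 0.54 ± 0.15 in unprimed mice (1.45-fold). With array weights the unprimed difference was 0.34. Arrays of the same number differed by 0.84, 0.65 and 0.43 in stimulated mice and by 0.57, 0.46 and 0.59 in unprimed mice. The mural value of Fshr was the higher one in each of these pairs. Of the probe sets tested, 2187 had a larger mural excess in stimulated mice and 1845 in unprimed mice, and 91.6% and 92.9% had a smaller one.

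For background, limma called 15.1% of tested probe sets between stimulated and unprimed mural cells and 19.8% between stimulated and unprimed cumulus cells, at an adjusted p under 0.05. It called 41.8% between mural and cumulus cells of stimulated mice, 21.3% between those of unprimed mice, and 3.24% for the difference of the responses. These same contrasts were known when the receptors were chosen, so nothing is read from their calls. Lhcgr exceeded the filter level, the 40th percentile, on 3 arrays, all of stimulated mural cells, so it entered the fit only through the group where it is high. Fshr exceeded it on all 12.

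**Figure D3:**
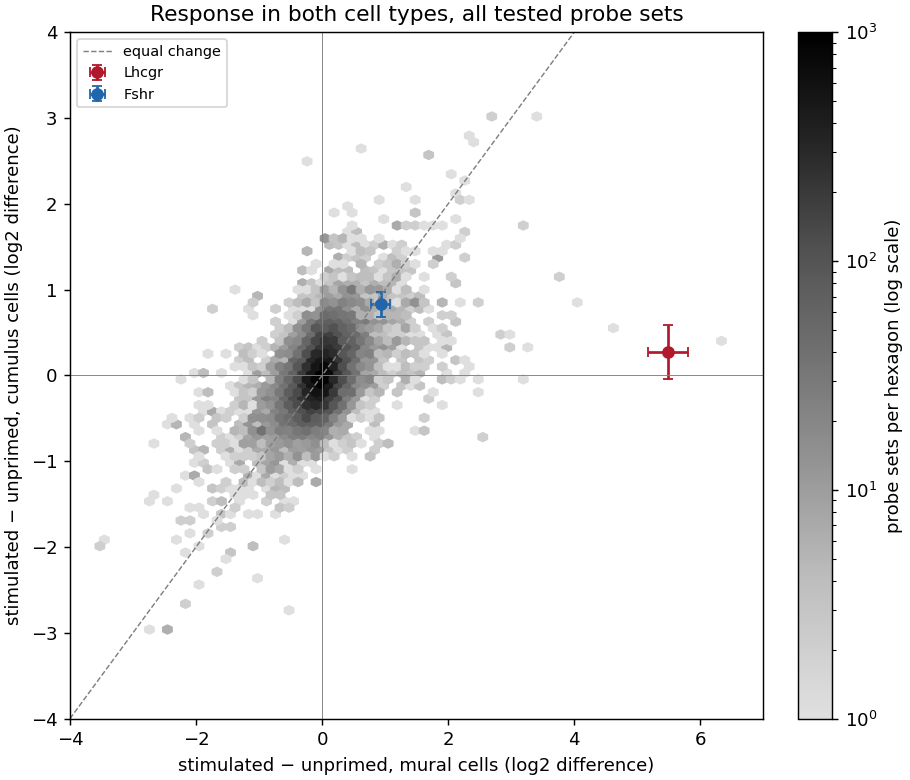
Log2 difference between stimulated and unprimed mice in mural cells (x axis) and cumulus cells (y axis) for 25917 tested probe sets, as counts per hexagon, with Lhcgr in red and Fshr in blue (bars are SE). Fshr sits beside the dashed line of equal change at 0.93 and 0.83, while Lhcgr sits far to the right, at 5.48 and 0.27.

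Stimulated mural arrays were the top 3 of the 12 for both receptors. The gap between the lowest of them and the highest of the other 9 arrays was 4.27 for Lhcgr and 0.43 for Fshr on the log2 scale. This arrangement, with any gap, was present in 1646 of the 25917 probe sets (6.35%). Lhcgr passed the filter on the 3 stimulated mural arrays alone, so the filter fixed its arrangement. Nothing is read from that share for Lhcgr. A gap as wide as that of Fshr was present in 312 other probe sets, or 217 with transcripts of identical values counted once. The 9 lower Lhcgr values lie under the filter level, so the width of its gap is not exact.

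The transcript nearest to Lhcgr was ENSMUST00000003659, which the files do not pair with a gene name. Likeness was the root mean square (RMS) of the log2 differences over the 12 arrays after each probe set's own mean was subtracted. It was 0.36 for this transcript, against a median of 2.57 over 16808 candidates with distinct values. A flat profile would have had an RMS of 2.54 to Lhcgr, so the median lies near that of no change. Its values were 13.28, 12.83 and 13.47 in mural cells of stimulated mice, against 6.36, 7.30 and 6.69 in mural cells of unprimed mice. In cumulus cells it had 7.59, 6.57 and 6.65 after stimulation, against 6.75, 6.50 and 6.40 without. It was picked for likeness on these same arrays, so its match to Lhcgr on single arrays was selected for. The next 4 candidates had an RMS of 0.71 to 0.99, so 5 in all lay within 1.

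Fshr varied less over the arrays than Lhcgr, so RMS values and counts of near patterns cannot be compared between them. The transcript nearest to Fshr, ENSMUST00000046689, also without a gene name in the files, had an RMS of 0.10. Within 0.25 lay 43 candidates, against a median RMS of 0.61. A flat profile would have had an RMS of 0.55 to Fshr. This transcript had means of 11.17 ± 0.049 and 10.22 ± 0.23 in mural cells of stimulated and of unprimed mice, and of 10.42 ± 0.12 and 9.82 ± 0.21 in cumulus cells of stimulated and of unprimed mice (SD, n = 3 each). It too was picked for likeness on these arrays, so the order of its group means was selected for.

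**Figure D4:**
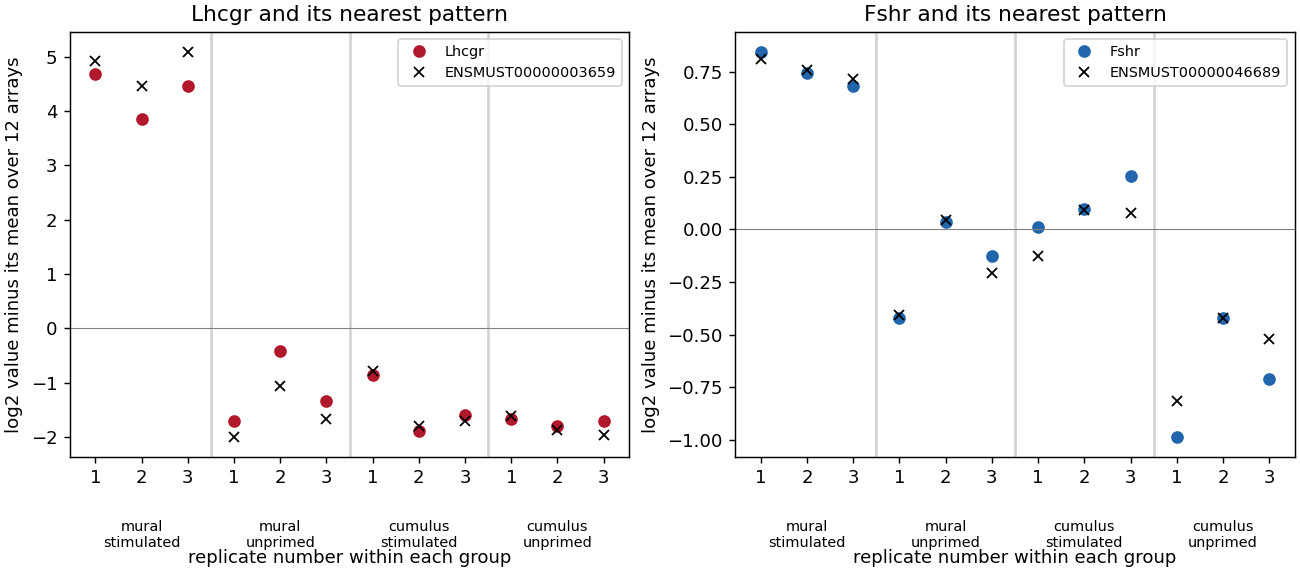
Log2 values minus each probe set's mean over the 12 arrays, by group and replicate number, for Lhcgr (left, red), Fshr (right, blue) and the transcript nearest to each (black crosses), on y axes of unlike range. The crosses follow the receptors with an RMS difference of 0.36 on the left and 0.10 on the right, the measure by which they were picked.

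Some technical measures differed between the groups. Array medians lay between 7.30 and 7.38. The mean of 24 probe sets for bacterial RNAs (dap, lys, phe and thr), commonly added before amplification, was 8.43 to 8.79 in stimulated and 7.59 to 7.80 in unprimed cumulus arrays. It was 7.57 to 7.75 in stimulated and 7.23 to 7.84 in unprimed mural arrays. The stimulated cumulus arrays thus lay above all others, so a fit with this mean as a covariate can hardly separate it from that group. With this mean as a covariate the Fshr difference between stimulated and unprimed cumulus cells was 0.83 ± 0.34 and that between stimulated mural and cumulus cells 0.64 ± 0.35, with larger standard errors than without it. The mural response was 0.93 ± 0.16 for Fshr and 5.28 ± 0.30 for Lhcgr in that fit. The cumulus difference of Lhcgr became -0.85 ± 0.63. The Gapdh controls' 3′ value less their 5′ value, a measure of transcript integrity and of 3′ bias, was 1.48 to 2.05 in stimulated and 1.85 to 2.34 in unprimed mural arrays. It was 1.37 to 1.62 in stimulated and 1.76 to 1.96 in unprimed cumulus arrays. The same measure of the beta-actin controls was 0.753 to 0.83 in stimulated and 0.745 to 0.877 in unprimed mural arrays, and 0.869 to 1.17 in stimulated and 0.746 to 1.01 in unprimed cumulus arrays. After stimulation the cumulus arrays were thus lower for Gapdh, and the mural ranges overlapped and were shifted downward. For beta-actin the cumulus ranges overlapped and were shifted upward. The part of either in the receptor differences was not tested.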

How the data were processed

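RNA of 12 samples was measured on 1 array each. The RNA, 20 ng a sample per the labels' protocols, was amplified again after a first round, which can alter relative levels and favours 3′ ends. Values were deposited by the authors as log2 intensities of probe sets, made with RMA in the affy package per the submitters' processing notes. RMA equalises array distributions, so a shift common to most transcripts is lost. For the array model, probe set definition and genome build, nothing is given in these sources.

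Of 41179 probe sets, 64 were controls and 41115 carried Ensembl transcript identifiers, and 0 columns belonged to other samples. A transcript's probe set was tested where it exceeded the 40th percentile on 3 or more arrays (25917, with 16809 distinct sets of values). A linear model of the 4 group means over the 12 arrays (limma 3.58.1 under R 4.3.3, lmFit then eBayes) was used, with Benjamini-Hochberg adjustment over all of them and a threshold of 0.05. The procedure was tested on simulated data. The receptors, lists, motifs and comparisons were chosen with earlier results of these data known. Where no table pairs identifiers with names, the naming rule allowed at most 2 transcripts per receptor, chosen by likeness, and the nearest to each is named. The RefSeq table (GRCm38.p6) held 0 Ensembl identifiers, so the receptor names rest on the choice of identifiers, and the lists of pathway genes and of cell type markers were not counted. Start regions were matched by symbol (2 of 2) and credited to RefSeq. Alternatives were normalization, array weights, a replicate block, medians, lower limits, a covariate, filters and leaving out each array.

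The labels give replicate numbers without saying that a number marks a shared pool or culture, so the spread may be partly technical. Deviations of same-numbered arrays from their group means correlated at 0.11, 0.31 and 0.42 between unprimed mural and cumulus cells, all over the limit of 0.1 for pairing. Between stimulated and unprimed mural cells the correlations were -0.092, -0.54 and -0.48. They were 0.21, 0.036 and 0.12 between stimulated and unprimed cumulus cells. Between stimulated mural and cumulus cells they were 0.19, 0.14 and -0.13. In each of these comparisons at least 1 of the 3 pairs lay below the limit. Plots used Python 3.11.15 with matplotlib 3.10.9.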

Additional observations from a re-analysis of the deposited data

Results flagged for a closer look

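The Lhcgr difference between stimulated and unprimed mice was 5.21 log2 units larger in mural than in cumulus cells, in the fit to all 12 arrays. It is listed because the effect of stimulation differed between the cell types. The same values led to the choice of Lhcgr, and 9 of the 12 arrays lay near background, so its size is not exact.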

How the results depend on the processing

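For Fshr the stimulation differences in both cell types and the mural excess at both stages stayed positive under all settings tried. Array weights moved the mural response to 1.16, the difference of the responses to 0.33 and the unprimed mural excess to 0.34. The weights were 8.61, 0.492 and 0.369 for unprimed mural replicates 1 to 3. For Lhcgr, array weights gave a mural response of 6.04, a difference of the responses of 5.75 and an unprimed mural excess of 0.10. The bacterial controls as a covariate gave 6.99 for stimulated mural against cumulus cells, -0.85 for the cumulus response and 6.13 for the difference of the responses. With the 40th percentile as lower limit the Lhcgr values were 4.0, 4.01, 0.0013 and 4.01 (mural response, mural minus cumulus in stimulated and in unprimed mice, and difference of the responses), by construction. A replicate block left each receptor difference as it was (5.48 for Lhcgr and 0.93 for Fshr in mural cells) and gave standard errors of 0.34 and 0.13. It moved no count of calls by over 1.5 times. Without 1 array at a time, the Lhcgr mural response was 5.21 to 5.85, its stimulated mural excess 5.57 to 6.08, its unprimed mural excess 0.21 to 0.85, its cumulus difference -0.021 to 0.49 and its difference of the responses 4.93 to 5.58. The same ranges for Fshr were 0.80 to 1.03, 0.58 to 0.71, 0.40 to 0.68, 0.69 to 0.97 and -0.043 to 0.24.

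Counts of called probe sets moved more. As reported, limma called 3915 and 5127 for stimulation in mural and cumulus cells, 10825 and 5512 for mural against cumulus cells in stimulated and unprimed mice, and 839 for the difference of the responses. Array weights called 8572 for the mural response, 13089 for the unprimed comparison and 3191 for the difference of the responses. The covariate called 38 for the cumulus response, 1535 for the stimulated comparison and 177 for the difference of the responses. Counted once per distinct set of values, the calls were 2489, 3331, 7108, 3638 and 548, by construction. Without 1 array at a time the counts ran from 2490 to 4221, from 2470 to 6104, from 8462 to 11567, from 3241 to 5678 and from 420 to 1465. The lowest 5 were without mural stimulated replicate 1, cumulus unprimed replicate 3, mural stimulated replicate 2, cumulus unprimed replicate 1 and mural stimulated replicate 1. The 1465 was without mural unprimed replicate 3. The cause of these moves was not tested. A filter on at least 6 arrays left Lhcgr out.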
